A study of Homo sapiens with 83 samples.

Results

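Integrins and laminins are the 2 gene families through which cells hold on to, and help to build, the matrix around them. Members were the genes whose symbol is that of an integrin alpha chain (ITGA), an integrin beta chain (ITGB) or a laminin alpha, beta or gamma chain (LAMA, LAMB, LAMC). There were 38 members among 60237 genes listed: 18 integrin alpha, 8 integrin beta, 5 laminin alpha, 4 laminin beta and 3 laminin gamma genes. Members with a mean of at least 1 TPM over the SHEP or the SKNAS libraries were tested (TPM is a level divided by transcript length and scaled to 1 fixed total per library). That left 27 tested members among 15942 genes tested, and 11 members below the limit in both lines.

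The data were 83 libraries of polyadenylated RNA from SHEP and SKNAS, human neuroblastoma cell lines that both overexpress N-MYC-ER, in which N-MYC is joined to the hormone-binding part of the estrogen receptor. MYC-OFF cells were given ethanol and MYC-ON cells 4-hydroxytamoxifen (4OHT), which activates the fusion, and dexamethasone followed in every group, MYC-OFF included, to set the circadian clock. CT is the time in hours after dexamethasone. SHEP MYC-OFF and SHEP MYC-ON held 28 libraries each (2 experiments, here series 1 and series 2, of 14 CTs from CT24 to CT76), SKNAS MYC-OFF held 14 (1 experiment, CT24 to CT76) and SKNAS MYC-ON 13 (1 experiment, CT24 to CT72), always every 4 h. Time points were treated as replicates, so p-values measure the spread over time points of few experiments, and for SKNAS of 1 experiment. No cells without N-MYC-ER and no cells given 4OHT without it were compared here, and in bulk RNA fewer cells of a kind and less RNA per cell cannot be told apart.

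An integrin is a pair of 1 alpha and 1 beta chain that crosses the cell membrane, binds matrix or another cell outside, and is tied inside to actin through adaptors such as talin and kindlin. ITGB1 is the common partner of many alpha chains, whereas ITGB3, ITGB5 and ITGB8 pair with ITGAV and ITGB4 with ITGA6. The alpha chain largely sets the ligand: ITGA3, ITGA6 and ITGA7 for laminin, ITGA1, ITGA2, ITGA10 and ITGA11 for collagen, ITGA4, ITGA5, ITGA8 and ITGAV for fibronectin and related proteins. Laminins are secreted as trimers of 1 alpha, 1 beta and 1 gamma chain, and they form the sheet of the basement membrane on which such integrins bind.

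N-MYC is a DNA-binding protein whose textbook site is the letters CACGTG, so the 250 bases before RefSeq gene starts (GRCh38.p14) were searched for that site and for 3 others, on both strands: TGANTCA, the site of AP-1 factors, and GGGCGG, that of SP1-like factors, besides CACGCG, a variant of the N-MYC letters. RefSeq gave such windows for 26 of the 38 members, 33 windows in all because some genes have several starts. CACGTG was in 1 of the 33 member windows, that of ITGA6, and in 6.34% of all 35116 windows. TGANTCA was in 2 member windows (LAMA3 and LAMB3) and in 6.57% of all, and GGGCGG in 17 member windows and in 42.6% of all. The variant was in 3 member windows (ITGA2, ITGB5 and LAMA2) and in 9.72% of all. 4 windows are shown, 5′ to 3′ on the strand of the gene, with every match to the site and to the first 2 others in capitals: ITGB1 (1 of its 2 windows) and LAMA5, whose RNA fell with MYC-ON in both lines, LAMC1, whose RNA passed the test in neither on the deposited scale, and ITGA6, the upstream one of 2 windows, which holds the N-MYC letters.
ITGB1, chr10:32958231-32958480, minus strand: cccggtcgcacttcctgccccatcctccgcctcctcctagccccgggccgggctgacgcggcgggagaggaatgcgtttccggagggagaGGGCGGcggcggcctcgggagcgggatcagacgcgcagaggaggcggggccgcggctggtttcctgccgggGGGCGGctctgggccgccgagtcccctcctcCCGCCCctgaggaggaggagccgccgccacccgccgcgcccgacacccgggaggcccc
LAMA5, chr20:62367313-62367562, minus strand: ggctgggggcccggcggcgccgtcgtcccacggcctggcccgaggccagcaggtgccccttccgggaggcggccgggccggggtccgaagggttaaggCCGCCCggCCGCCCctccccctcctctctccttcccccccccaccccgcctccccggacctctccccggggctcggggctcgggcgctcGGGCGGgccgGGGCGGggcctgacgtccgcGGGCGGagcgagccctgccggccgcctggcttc
LAMC1, chr1:183023170-183023419, plus strand: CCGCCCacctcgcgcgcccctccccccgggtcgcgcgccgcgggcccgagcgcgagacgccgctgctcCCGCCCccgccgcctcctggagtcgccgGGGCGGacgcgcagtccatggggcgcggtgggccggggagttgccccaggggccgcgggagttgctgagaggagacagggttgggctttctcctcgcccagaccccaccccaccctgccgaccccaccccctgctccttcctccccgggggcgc
ITGA6, chr2:172427086-172427335, plus strand: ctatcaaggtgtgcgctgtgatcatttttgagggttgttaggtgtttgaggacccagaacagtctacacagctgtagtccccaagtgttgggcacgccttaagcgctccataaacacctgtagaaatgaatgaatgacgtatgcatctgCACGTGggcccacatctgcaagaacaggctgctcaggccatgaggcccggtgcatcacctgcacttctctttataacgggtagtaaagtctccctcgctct
The windows shown of ITGB1 and LAMC1 each held 3 matches to GGGCGG or its complement, and that of LAMA5 held 5. The other window of ITGB1 held 0 and was 41.6% G or C. The windows shown of ITGB1, LAMC1 and LAMA5 are GC-rich (78.4%, 79.6% and 82.8% G or C), and that of ITGA6 was 50.8%. The median was 60% over the 33 member windows and 58% over all windows. A match describes the letters only.

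The libraries of SKNAS stood apart from one another. The median over tested genes of log2(TPM + 1) ran from 3.93 to 4.17 over the SHEP libraries, but from 2.97 to 4.38 in SKNAS MYC-OFF and from 2.76 to 4.25 in SKNAS MYC-ON. It was below 3.8 in 4 of 14 SKNAS MYC-OFF and in 10 of 13 SKNAS MYC-ON libraries, so this property moved with the condition. The SKNAS changes, sums and line comparisons are therefore followed by their values without those libraries. MYCN RNA, which includes the fusion's, was 406 to 688 TPM in SHEP MYC-OFF and 255 to 515 in SHEP MYC-ON, and 29.1 to 987 and 13.1 to 1046 in SKNAS. 4OHT acts on the fusion protein, so MYCN RNA does not check the labels. Of 7 adrenergic neuroblastoma markers 2 reached 1 TPM in SHEP, with a sum of 28.2 to 43.8 TPM in MYC-OFF and 37.6 to 55.7 in MYC-ON, and 4 did in SKNAS, with a sum of 261 to 588 and 82.2 to 254. Thus the adrenergic sum also moved with the condition in SKNAS, and its part in the results was not tested. 7 mesenchymal markers summed to 3450 to 4980 and 3140 to 4460 TPM in SHEP and to 792 to 2180 and 648 to 2620 in SKNAS, 3 endothelial markers to at most 1.96 and 3 epithelial markers to at most 8.45 in any library.

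SHEP and SKNAS expressed overlapping but different sets of members. In SHEP 24 members reached a mean of 1 TPM and in SKNAS 21, with 18 shared. LAMA2, LAMA3, LAMA4, ITGAX and ITGB3 were among those that reached it in SHEP only, and ITGA8, ITGA10 and ITGA11 in SKNAS only. The highest members in SHEP MYC-OFF were ITGB1 at 1068 ± 90.4 TPM (SD, n = 28), ITGA3 at 695 ± 39.8, ITGA5 at 391 ± 70.1, LAMB1 at 198 ± 20.1, LAMC1 at 191 ± 28.6 and ITGB5 at 181 ± 24.5. TPM are per length, so these levels can be ordered between genes. LAMB1, LAMC1 and ITGB5 lay within their spread of one another.

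In SKNAS MYC-OFF ITGB1 was also the highest, at 308 ± 136 TPM (SD, n = 14), followed by LAMB1 at 258 ± 34.5 and ITGB5 at 251 ± 85.5, which did not differ beyond their spread. ITGA3 at 149.8 ± 55.7 and LAMA5 at 147 ± 37.2 came next, again within their spread, and LAMA5 was at 8.90 ± 3.25 in SHEP MYC-OFF. In the 10 SKNAS MYC-OFF libraries with a median of at least 3.8 these levels were 384 ± 54.5 for ITGB1, 252.5 ± 31 for LAMB1, 299.9 ± 22.1 for ITGB5, 179.8 ± 28.5 for ITGA3 and 153 ± 9.09 for LAMA5. The main laminin alpha chain thus differed between lines: LAMA4 made up 78.6% ± 5.40 (SD, n = 28) of the laminin alpha TPM in SHEP MYC-OFF, and LAMA5 98.9% ± 0.387 (SD, n = 14) in SKNAS MYC-OFF. In both lines LAMC1 gave nearly all laminin gamma TPM, 98.1% and 99.5% in MYC-OFF.

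**Figure D1:**
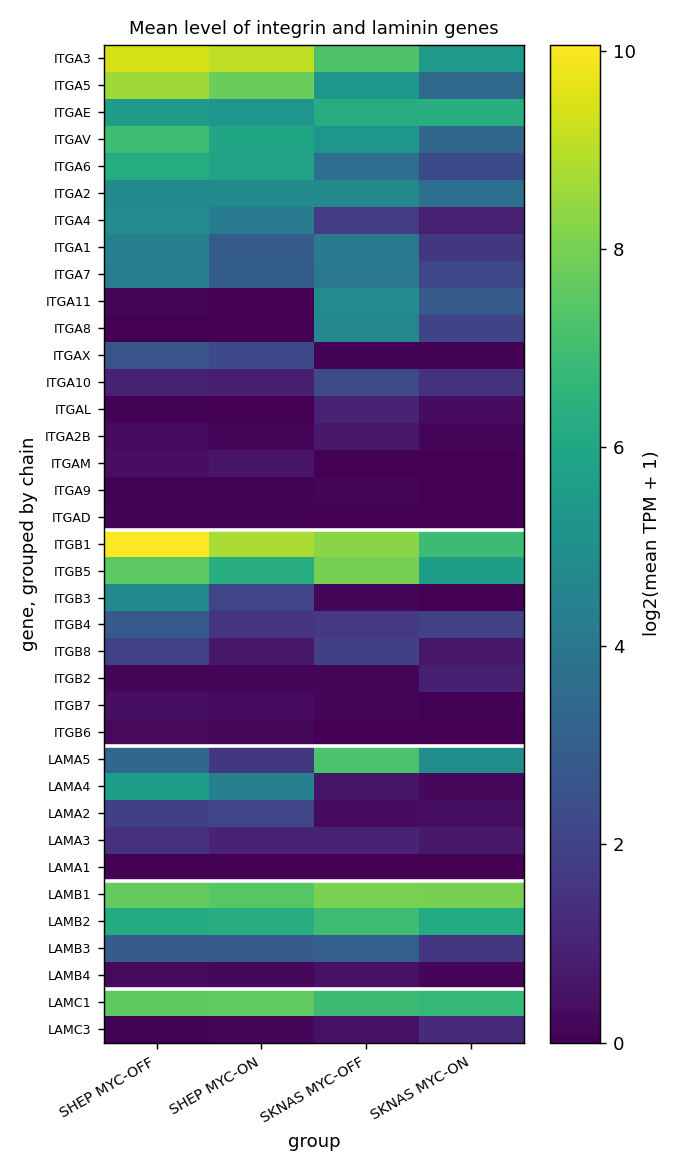
Mean level of the members in the 4 groups, as log2(mean TPM + 1) by colour, with genes (vertical axis) ordered by chain and white lines between chains. ITGB1 is the brightest row of the beta chains in SHEP, at a mean of 1068 TPM in MYC-OFF, and LAMA4 and LAMA5 exchange places between the lines.

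The 11 untested members were ITGA2B, ITGA9, ITGAD, ITGAL, ITGAM, ITGB2, ITGB6, ITGB7, LAMA1, LAMB4 and LAMC3. 6 of them, ITGA2B, ITGAD, ITGAL, ITGAM, ITGB2 and ITGB7, are chains known from platelets and leukocytes. The members just above the limit were LAMA3, with a mean of 1.37 TPM over the SHEP libraries, and ITGB8, with 1.73 in SHEP and 1.70 in SKNAS. Just below it were LAMC3, at 0.833 TPM over the SKNAS libraries, and ITGAL, at 0.642. ITGAL, a leukocyte alpha chain, was at 0.251 to 2.42 TPM (median 0.954) in the 14 SKNAS MYC-OFF libraries and at 0.0238 to 0.845 (median 0.182) in the 13 of MYC-ON. Among 5 leukocyte markers PTPRC was at 13 to 132 TPM in SKNAS MYC-OFF and at 3.13 to 59.7 in MYC-ON, while CD3E was listed at 0 in all SKNAS libraries and CD14 reached at most 0.948. PTPRC was listed at 0 in all SHEP MYC-OFF libraries. The part of leukocyte markers in the level of ITGAL was not tested.

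The first comparison asked how activated N-MYC changed the members in SHEP. Of 27 tested members 20 fell and 0 rose in MYC-ON (called at an adjusted p up to 0.05 where the log2 change was 0.15 or more). Over all 15942 genes the shares called were 36.3% lower and 30.9% higher. At 1.5-fold (a log2 change of 0.66) 13 members were lower and 0 higher, against 10.3% and 8.54% of all genes. The median log2 change was -0.40 over the 27 members and -0.02 over all genes. In 7 members every MYC-ON library was below every MYC-OFF library (ITGA7, ITGAV, ITGB1, ITGB3, ITGB5, ITGB8 and LAMA4), which held for 5.76% of all genes. In 0 members every MYC-ON library was above every MYC-OFF library, as in 5.53% of all genes. Changes are of log2(TPM + 1), so that folds of genes with little TPM come out too small.

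All 5 tested integrin beta chains fell in SHEP. ITGB1, the shared beta chain, was at 932 to 1223 TPM with a median of 1071 in the 28 MYC-OFF libraries and at 322 to 687 with a median of 441 in the 28 MYC-ON libraries. The groups did not overlap. ITGB1 fell by 1.29 ± 0.05 (SE) on the log2 scale, which is 2.44-fold (limma, adjusted p = 3.05e-27), and was lower at 28 of 28 matched CTs. Matched CTs in SHEP are pairs of libraries of the same series and CT, so 14 CTs in 2 series give 28. ITGB5, a vitronectin-binding partner of ITGAV, was at 119 to 227 TPM (median 183) in MYC-OFF and at 48 to 112 (median 78.4) in MYC-ON. Here too no library of one group reached the other, and ITGB5 fell by 1.22 ± 0.06 on the log2 scale (adjusted p = 1.09e-22).

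ITGB3, another vitronectin-binding partner of ITGAV, showed the steepest fall of the 27 members in SHEP. It was at 11.9 to 33.8 TPM (median 27.4) in MYC-OFF and at 1.83 to 6.23 (median 3.02) in MYC-ON, without overlap. The fall was 2.65 ± 0.09 on the log2 scale, or 6.28-fold (adjusted p = 9.94e-29). ITGB3 shares 2266 exon bases on the same strand with a readthrough gene, so its reads may be split between the entries. ITGB8, which with ITGAV activates latent TGF-beta, was at 1.79 to 4.55 TPM in MYC-OFF and at 0.103 to 1.07 in MYC-ON and fell by 1.3 ± 0.07 (adjusted p = 3.01e-21). ITGB4, the hemidesmosome chain, was at 3.56 to 8.78 TPM in MYC-OFF and 0.709 to 5.62 in MYC-ON, which overlap. It fell by 1.32 ± 0.10 (adjusted p = 8.31e-16) and was lower at 27 of 28 matched CTs.

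Of 13 tested integrin alpha chains 10 fell in SHEP. ITGAV, a partner of ITGB3, ITGB5 and ITGB8, was at 90.5 to 148 TPM (median 126) in MYC-OFF and at 44.9 to 77.8 (median 59.5) in MYC-ON. The groups did not overlap, and the fall was 1.02 ± 0.05 on the log2 scale (adjusted p = 3.28e-23). ITGA5, the fibronectin receptor chain, was at 205 to 558 TPM (median 377) in MYC-OFF and at 115 to 402 (median 203) in MYC-ON. These ranges overlap, although ITGA5 was lower at 27 of 28 matched CTs, and it fell by 0.87 ± 0.06 (adjusted p = 1.37e-16).

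The laminin-binding alpha chains fell by unequal amounts. ITGA7 fell by 1.29 ± 0.06 on the log2 scale (adjusted p = 1.25e-23), from 12.8 to 28.4 TPM in MYC-OFF to 3.41 to 12.7 in MYC-ON, without overlap. ITGA3 and ITGA6, the more abundant of the 3, fell by 0.38 ± 0.05 and 0.39 ± 0.04 (adjusted p = 6.02e-10 and 8.06e-13). ITGA3 was at 592 to 760 TPM (median 699.5) in MYC-OFF and at 422 to 904 (median 499) in MYC-ON, so that the highest ITGA3 value was in a MYC-ON library. Its share of the integrin alpha TPM was 48.8% ± 2.54 in MYC-OFF and 55.3% ± 3.43 in MYC-ON (SD, n = 28 each).

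Collagen-binding alpha chains differed in the same cells. ITGA1 fell by 1.47 ± 0.10 (adjusted p = 5.80e-17), from a median of 19.7 TPM (9.23 to 27.8) to 6.25 (3.51 to 12.5), and was lower at 28 of 28 matched CTs although the ranges overlap. Its neighbour ITGA2, on the same strand of chromosome 5 with a gap of 30.1 kb, was at 17.3 to 38.5 TPM in MYC-OFF and at 19.3 to 35.4 in MYC-ON. The ITGA2 difference was 0.04 ± 0.06 (adjusted p = 0.626), and ITGA2 was lower at 12 of 28 matched CTs. It was -0.12 in series 1 (adjusted p = 0.132) and 0.19 in series 2 (adjusted p = 0.0140). Part of an exon of ITGA1, 499 bases, is shared with PELO on the same strand. ITGA4, a fibronectin and VCAM1 receptor chain, fell by 0.74 ± 0.09, ITGAX by 0.40 ± 0.08 and ITGAE by 0.30 ± 0.05. ITGA10 fell by 0.16 ± 0.06 (adjusted p = 0.0104), with a mean of about 1 TPM in each group (1.01 and 0.800). This was the call that ended under 5 alternatives, among them the fit without series 2 (-0.06, adjusted p = 0.537). ITGA8 was listed at 0 in 27 of 28 MYC-OFF and in 28 of 28 MYC-ON libraries.

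**Figure D2:**
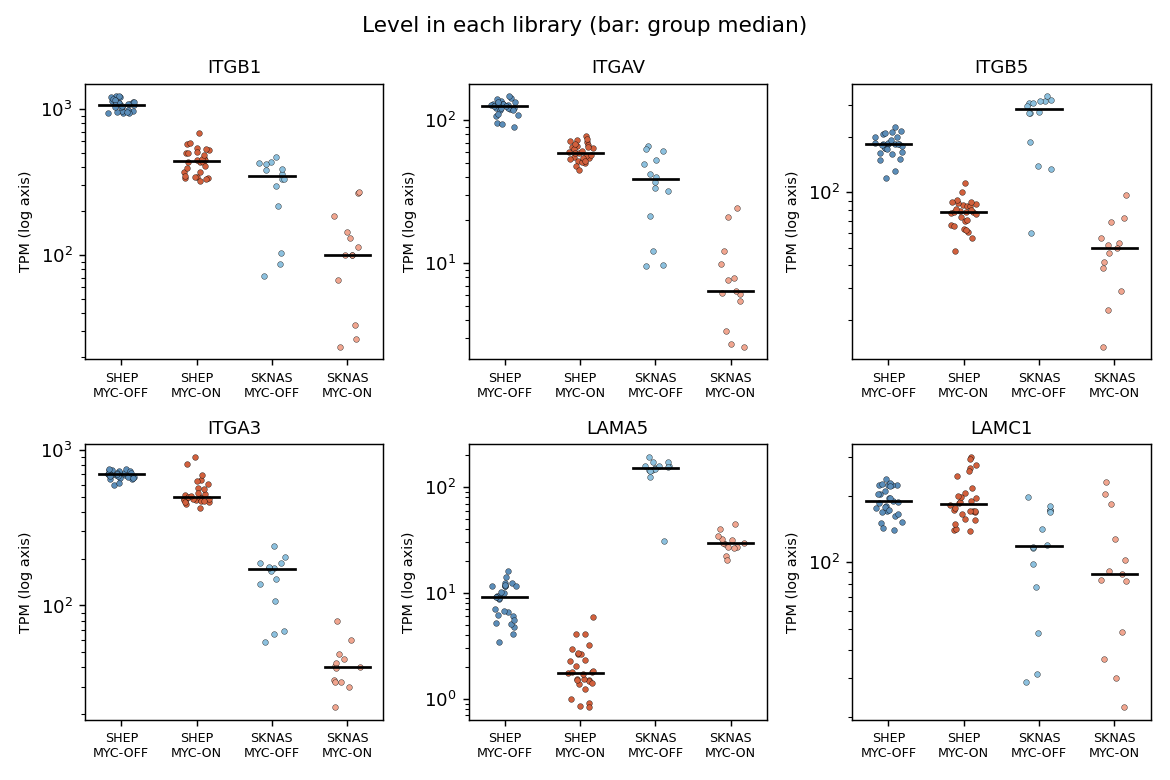
Level in TPM (vertical log axes) of ITGB1, ITGAV, ITGB5, ITGA3, LAMA5 and LAMC1 in every library, 1 point each, by group, with a bar at the group median. In SHEP the MYC-ON points of ITGB1, ITGAV and ITGB5 lie below all MYC-OFF points, while the points of LAMC1 overlap in both lines.

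The laminin chains of SHEP did not move together, and the called members included 3 of 4 alpha chains and 1 of 3 beta chains. LAMA4, the main alpha chain of SHEP, was at 37.1 to 58.9 TPM (median 48.1) in MYC-OFF and at 13.7 to 29.2 (median 20.2) in MYC-ON. The groups did not overlap, and LAMA4 fell by 1.24 ± 0.05 on the log2 scale (adjusted p = 1.72e-24). LAMA5, the widespread alpha chain of adult basement membranes, fell by 1.67 ± 0.14 (adjusted p = 4.53e-15), from 3.43 to 16.1 TPM to 0.830 to 5.89. LAMA5 was lower at 28 of 28 matched CTs although its ranges overlap.

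Most of the abundant beta and gamma chains that such alpha chains join did not pass the test in SHEP. LAMC1 was at 140.4 to 239 TPM (median 189) in MYC-OFF and at 139 to 299 (median 183) in MYC-ON with a difference of 0.02 ± 0.08 (adjusted p = 0.869). LAMB2 had a difference of 0.04 ± 0.08 (adjusted p = 0.624) and LAMB3 one of -0.08 ± 0.08 (adjusted p = 0.355). LAMB1 fell by 0.24 ± 0.05 (adjusted p = 1.66e-05), from a median of 199 TPM to 164. LAMA3 fell by 0.40 ± 0.08 at a mean of 1.71 and 1.03 TPM. LAMA2, the alpha chain of muscle laminin, was at 1.04 to 7.69 TPM in MYC-OFF and 0.824 to 6.89 in MYC-ON, with a difference of 0.19 ± 0.11 (adjusted p = 0.125).

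Summed over a chain class, the TPM of the integrin beta chains were 1285 ± 86.7 in SHEP MYC-OFF and 528 ± 96.4 in MYC-ON (SD, n = 28 each), and those of the alpha chains 1427 ± 110 and 973 ± 146. Laminin alpha chains summed to 61.1 ± 8.10 and 26.2 ± 4.21 TPM. Laminin beta chains were at 277 ± 21.4 and 252 ± 52.2, and gamma chains at 194 ± 28.5 and 197 ± 46.1. The ranges of the beta integrin and laminin alpha sums did not overlap between conditions (1146 to 1446 against 407 to 776, and 42.5 to 76.6 against 19.8 to 35.7 TPM).

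The same comparison in SKNAS gave 18 of 27 members lower and 0 higher, against 31.2% and 12.5% of all genes. At 1.5-fold 17 were lower and 0 higher, against 20.3% and 6%. All genes had a median log2 change of -0.22 in SKNAS, which was -0.03 after median-of-ratios rescaling and 0.00 with the library median as a covariate, and changes should be read relative to it. The median over the members was -1.12, and -0.86 and -0.76 under those settings. The share of higher among all genes called moved from 28.6% to 44.7% and 52.9%. The members called lower were then 16 in each case, against 25.7% and 22.8% of all genes. Over the 13 libraries with a median of at least 3.8 (10 MYC-OFF, 3 MYC-ON) limma with the CT term called 0 members and 0 of 15942 genes, of which 2840 had an unadjusted p of at most 0.05. Without the CT term, a fit chosen after seeing the data, 14 members were lower over those libraries, against 22.8% of all genes. 12 members were called lower in each of 4 fits (deposited scale, rescaled, covariate, and this last one without the CT term), but none in the fit with the CT term: ITGA1, ITGA3, ITGA5, ITGA6, ITGA7, ITGA8, ITGAV, ITGB1, ITGB5, ITGB8, LAMA5 and LAMB3. The share of all genes called lower in each of those 4 fits is not given here.

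**Figure D3:**
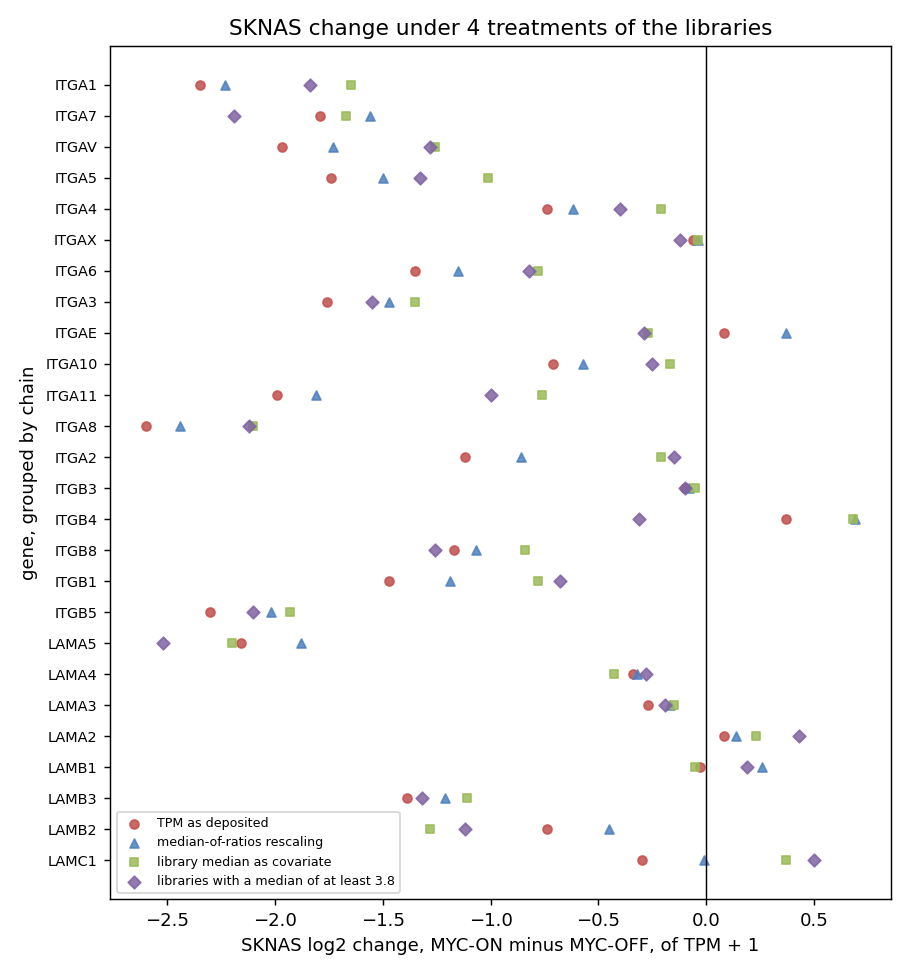
SKNAS log2 change (MYC-ON minus MYC-OFF, of TPM + 1, horizontal axis) of the tested members shown, by gene, under the 4 ways of treating the SKNAS libraries. ITGB5 lies between -2.30 and -1.93 and LAMA5 between -2.52 and -1.88 in all 4, whereas LAMC1 runs from -0.30 to 0.50 and crosses zero.

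Among the beta chains of SKNAS, ITGB5 changed most. It was at 60.2 to 335 TPM (median 284) in MYC-OFF and at 14.4 to 96.5 (median 49.5) in MYC-ON, and fell by 2.30 ± 0.20 on the log2 scale (adjusted p = 1.28e-06). The ranges overlap over all libraries but not over those with a median of at least 3.8, where ITGB5 was at 270.5 to 335 TPM against 49.5 to 96.5. ITGB1 was at 71.4 to 470.3 TPM (median 347) in MYC-OFF and at 23.6 to 270.2 (median 100.2) in MYC-ON, with overlap, and lower at 11 of 13 matched CTs. ITGB1 fell by 1.47 ± 0.29 (adjusted p = 0.00111), and the library median as a covariate left a fall of 0.78 (adjusted p = 0.00114). ITGB8 fell by 1.17 ± 0.15 (adjusted p = 4.15e-05), from a median of 2.71 to 0.510 TPM.

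ITGB4 and ITGB3 did not fall in SKNAS by these criteria. ITGB4 was at 0.132 to 4.81 TPM in MYC-OFF and at 0.481 to 5.10 in MYC-ON, with a change of 0.37 ± 0.26 (adjusted p = 0.256), and it was higher at 10 of 13 matched CTs. After rescaling its change was 0.69 (adjusted p = 0.0472), and over the libraries with a median of at least 3.8 it was -0.31 (adjusted p = 0.430). ITGB3 was at most 0.224 TPM in SKNAS.

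Of the 13 tested alpha chains 11 fell in SKNAS. ITGA8, a fibronectin and nephronectin receptor chain that was near 0 in SHEP, was at 9.37 to 39.0 TPM (median 23.6) in MYC-OFF and at 0.540 to 7.28 (median 2.35) in MYC-ON. The groups did not overlap, and ITGA8 fell by 2.60 ± 0.24 (adjusted p = 1.50e-06), and by 2.10 with the covariate. ITGA3 was at 58.4 to 239.9 TPM (median 171) in MYC-OFF and at 22.1 to 79.0 (median 40.1) in MYC-ON. It was lower at 13 of 13 matched CTs and fell by 1.76 ± 0.17 (adjusted p = 3.39e-06), and by 1.35 with the covariate. ITGA7 was at 4.24 to 20.6 TPM in MYC-OFF and at 2.49 to 4.73 in MYC-ON, and fell by 1.79 ± 0.14 (adjusted p = 3.16e-07), and by 1.67 with the covariate.

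ITGAV, at a median of 38.8 and 6.39 TPM, fell by 1.97 ± 0.29 (adjusted p = 1.03e-04), ITGA5, at 44.6 and 9.08, by 1.74 ± 0.29 (adjusted p = 2.96e-04), and ITGA1, at 16.6 and 1.3, by 2.35 ± 0.32 (adjusted p = 4.85e-05). ITGA6, at a median of 12.6 and 3.55 TPM, fell by 1.35 ± 0.24 (adjusted p = 4.53e-04). Each of the 4 was called in all 4 fits. ITGA4 fell by 0.74 ± 0.22 (adjusted p = 0.0152), at a median of 2.20 and 0.700 TPM, where the covariate gave -0.21 (adjusted p = 0.142). The collagen receptor chains ITGA2, ITGA10 and ITGA11 fell, with changes of -1.12, -0.71 and -1.99 (adjusted p = 0.0240, 0.0261 and 0.00643). The covariate turned these into -0.21, -0.17 and -0.76 (adjusted p = 0.247, 0.345 and 0.0239). In the 3 MYC-ON libraries with a median of at least 3.8 ITGA2 was at 17.9 to 36.8 TPM, within the 15.7 to 51.1 TPM of the 10 MYC-OFF libraries. Over libraries of 1 group the level of ITGA2 and the library median had r = 0.98 (n = 14, MYC-OFF) and 0.95 (n = 13, MYC-ON), for points that share their libraries. ITGAE ran the other way (r = -0.96 and -0.94). Its change was 0.08 ± 0.14 (adjusted p = 0.672), but the covariate gave -0.27 (adjusted p = 0.00414).

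LAMA5, the main laminin alpha chain of SKNAS, was at 30.9 to 193 TPM (median 153) in MYC-OFF and at 20.5 to 45.0 (median 29.6) in MYC-ON. A lone MYC-OFF library reached into the MYC-ON range, and LAMA5 fell by 2.16 ± 0.19 on the log2 scale (adjusted p = 8.60e-07), and by 2.20 with the covariate. LAMB3 was at 3.90 to 11.1 TPM and 0.915 to 3.72, and fell by 1.39 ± 0.16 (adjusted p = 1.29e-05). LAMB3 and ITGA8 were the 2 members whose groups did not overlap in SKNAS (1.86% of all genes lower without overlap, 2.05% higher). LAMB2, the beta chain of mature vascular and synaptic basement membranes, fell by 0.74 ± 0.22 (adjusted p = 0.0147), whereas rescaling gave -0.45 (adjusted p = 0.324) and the covariate -1.28 (adjusted p = 1.98e-07). LAMB1 was at 208 to 337 TPM and 196 to 315, with a change of -0.03 ± 0.09 (adjusted p = 0.783). LAMC1, at 28.9 to 198 and 22.2 to 231 TPM, had a change of -0.30 ± 0.28 (adjusted p = 0.403), where the covariate gave 0.37 (adjusted p = 0.0415). LAMA4 fell by 0.34 ± 0.10 (adjusted p = 0.0137), although it was at most 1.03 TPM in any SKNAS library, and rescaling gave -0.32 (adjusted p = 0.0935). LAMA2 and LAMA3 were not called. LAMC3, untested, had a mean of 0.377 TPM in MYC-OFF and 1.32 in MYC-ON.

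Over the 13 libraries with a median of at least 3.8, without the CT term, the falls of the chains that bind laminin or fibronectin were 1.55 for ITGA3, 2.19 for ITGA7, 0.82 for ITGA6, 1.33 for ITGA5, 2.12 for ITGA8 and 1.28 for ITGAV on the log2 scale, and that of the collagen-binding ITGA1 was 1.84. Those of the beta chains were 0.68 for ITGB1, 2.10 for ITGB5 and 1.26 for ITGB8. ITGB1 thus kept less of its change than ITGB5. LAMA5 fell by 2.52 and LAMB3 by 1.32, and the change of LAMB2 was -1.12 (adjusted p = 3.93e-04). ITGA2 (-0.15), ITGA4 (-0.40), ITGA10 (-0.25), ITGA11 (-1), LAMA4 (-0.28), LAMB1 (0.19) and LAMC1 (0.50) were not called, with adjusted p = 0.757, 0.238, 0.639, 0.125, 0.182, 0.222 and 0.0597.

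Summed TPM of the integrin alpha chains were 430 ± 133 in SKNAS MYC-OFF (SD, n = 14) and 173 ± 38.8 in MYC-ON (SD, n = 13), and those of the beta chains 565 ± 216 and 174 ± 97.9. ITGAE, not called on the deposited scale, made up 21.5% ± 15.8 of the alpha TPM in MYC-OFF and 48.1% ± 17.2 in MYC-ON. Laminin alpha chains summed to 148 ± 37.6 and 31.5 ± 6.72 TPM, beta chains to 386 ± 77.7 and 326 ± 34.8, and gamma chains to 120 ± 56.7 and 104 ± 67.2. Of these 5 sums that of laminin alpha differed most between conditions relative to its level. Over all libraries the ranges overlap for each class (31.2 to 194 against 21.6 to 46.0 TPM for laminin alpha). In the libraries with a median of at least 3.8 (n = 10 and 3) the sums were 500.4 ± 77.5 and 225 ± 54.6 for integrin alpha, 690.4 ± 51.6 and 315 ± 54.3 for integrin beta, and 155 ± 9.45 and 28 ± 6.08 TPM for laminin alpha, with no overlap in these 3. Laminin beta chains were then at 347 ± 33.3 and 329 ± 23.9 TPM, and gamma chains, now higher in MYC-ON, at 149 ± 34 and 207.5 ± 24.1.

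13 members fell in both lines at a log2 change of at least 0.15, against 20.6% of all genes. At 1.5-fold they were 9, ITGA1, ITGA4, ITGA5, ITGA7, ITGAV, ITGB1, ITGB5, ITGB8 and LAMA5, against 5.78%. ITGAV is among them with its partners ITGB5 and ITGB8, as is ITGA5 with ITGB1. Of the 13, ITGA4, ITGA10 and LAMA4 were not called by limma in SKNAS libraries with a median of at least 3.8 without the CT term (adjusted p = 0.238, 0.639 and 0.182). The rest of the 13 were called there, but none with the CT term. No member was called higher in either line on the deposited scale. With the covariate 1 was in SHEP and 1 in SKNAS (ITGA2 by 0.16 and LAMC1 by 0.37), against 32.8% and 25.7% of all genes.

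**Figure D4:**
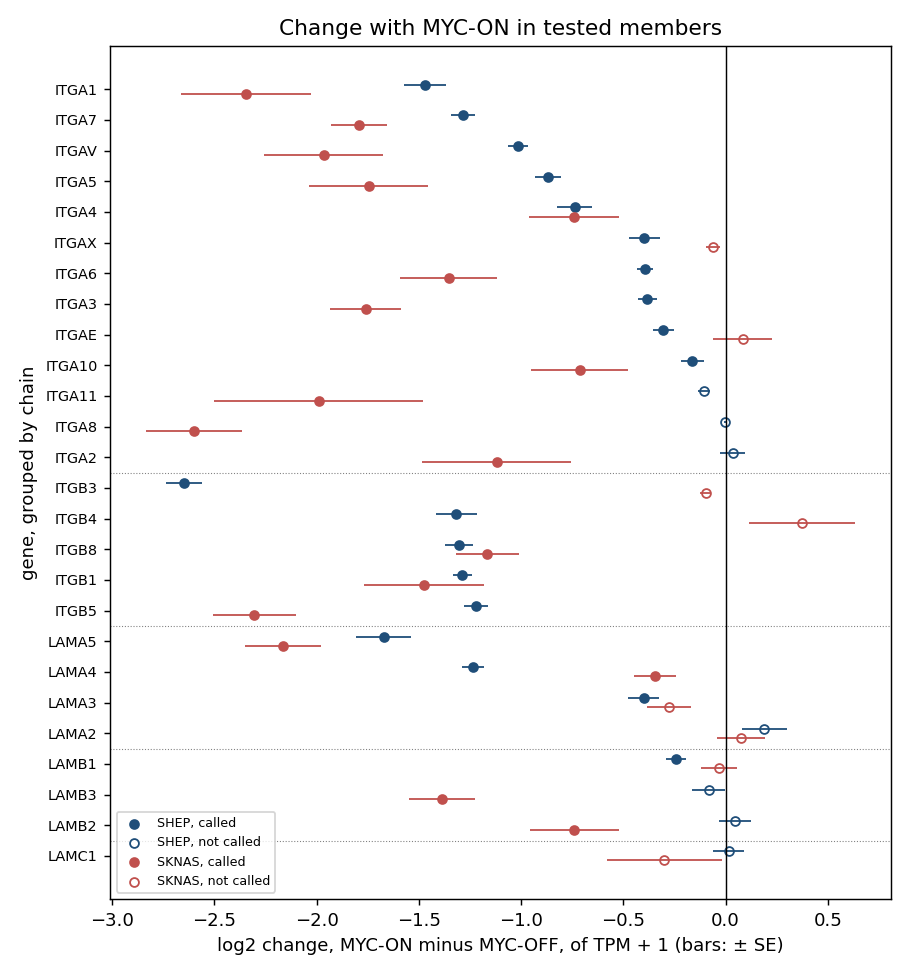
Log2 change (MYC-ON minus MYC-OFF, of TPM + 1, horizontal axis) with its SE for the tested members shown, in SHEP (blue) and SKNAS (red), filled where called. Most points lie left of zero, to -2.65 for ITGB3 in SHEP and -2.60 for ITGA8 in SKNAS, and LAMC1, LAMB2 and LAMB3 of SHEP lie close to it.

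Whether the lines differed in their response was tested as an interaction. The SKNAS change lay below the SHEP change in 11 members (16.2% of all genes) and above it in 4 (5.02%), at a difference of at least 0.66. Over all genes the share above among those called was 23.7%, and 48.9% after rescaling. ITGA3 differed by -1.38 ± 0.13 (SHEP -0.38, SKNAS -1.76, adjusted p = 5.87e-14), LAMB3 by -1.30 ± 0.15 (SHEP -0.08, SKNAS -1.39, adjusted p = 1.87e-10) and ITGB5 by -1.08 ± 0.15 (SHEP -1.22, SKNAS -2.30, adjusted p = 2.85e-08). ITGB4 differed by 1.69 ± 0.22 (SHEP -1.32, SKNAS 0.37, adjusted p = 2.95e-09). These 4 were called in the same 4 fits, and without the low-median libraries and the CT term their differences were -1.17, -1.24, -0.88 and 1.00. The counts also hold members that passed the limit of 1 TPM through a single line. ITGA8 and ITGA11 were near 0 in SHEP, and ITGB3 and LAMA4 in SKNAS, so their differences (-2.60, -1.88, 2.55 and 0.89) restate the change in the line that expresses them. Where both lines had to reach 1 TPM, 9 of 18 members lay below and 1 above, against 14.9% and 2.97% of the 12306 genes left. In the libraries with a median of at least 3.8 they were 6 and 4 with the CT term, against 6.64% and 4.40% of all genes. For ITGB1 the difference was -0.19 ± 0.19 (adjusted p = 0.410), and 0.39 with the covariate.

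In MYC-OFF 13 members were higher in SHEP (31.1% of all genes) and 4 in SKNAS (20%), at a log2 difference of at least 0.66. The median difference, SKNAS minus SHEP, was -0.50 over the members and -0.16 over all genes. Over all genes 39.1% of those called were higher in SKNAS, and 49.4% with the library median as a covariate. ITGA5 was 11.5-fold lower in SKNAS (log2 difference -3.53 ± 0.17, adjusted p = 3.65e-18), ITGA4 9.24-fold (-3.21 ± 0.15) and ITGA3 5.00-fold (-2.32 ± 0.12). LAMA5 was higher in SKNAS by 3.89 ± 0.16. The other 3 counted there, ITGA8, ITGA10 and ITGA11, passed the limit of 1 TPM through SKNAS alone, so their direction was set by that choice. Where both lines had to reach 1 TPM, 8 of 18 members were higher in SHEP and 1, LAMA5, in SKNAS. Of the 12306 genes left by that filter 26.6% and 15.7% were. ITGB8 (-0.11 ± 0.12, adjusted p = 0.422) and LAMB3 (0.09 ± 0.09, adjusted p = 0.383) passed no test, and ITGB5 was higher in SKNAS by 0.36 ± 0.14 (adjusted p = 0.0175), under the limit of 0.66. Without the SKNAS libraries with a low median 12 members were higher in SHEP and 5 in SKNAS, against 23.7% and 23.3% of all genes. ITGA5 then differed by -2.97, ITGA4 by -2.82, ITGA3 by -1.96, LAMA5 by 4.06 and ITGB8 by 0.18, ITGB5 passed the limit at 0.77, and LAMC1 went from -0.87, called, to -0.38, not called.

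The SHEP series also let the members be followed over culture time. In MYC-OFF 6 members trended down (9.39% of all genes) and 6 up (5.31%), as a linear slope per 24 h with the series as a factor. In MYC-ON 11 trended down (34.1%) and 10 up (18.7%). The slope of MYC-ON was below that of MYC-OFF in 9 members (24.7%) and above it in 10 (14.9%). When each series was fitted on its own, ITGA4, ITGB5 and ITGB8 (below) and ITGA3 and LAMB3 (above) were among those called in each. The share of all genes called in each series is not given here. All 19 members of that comparison had the same sign in both series. They were picked on both series together, so this agreement is no separate support.

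ITGB5 and LAMB3 show the opposite patterns. At CT24 ITGB5 was at 119 and 130 TPM (series 1 and 2) in MYC-OFF and at 77.0 and 79.8 in MYC-ON, and at CT76 at 207 and 227 in MYC-OFF and at 87.4 and 75.9 in MYC-ON. So the ITGB5 groups lay closer at CT24 than at CT76, with slopes of 0.25 ± 0.03 per 24 h in MYC-OFF and -0.16 ± 0.06 in MYC-ON (adjusted p of the difference 6.37e-06). LAMB3 was at 6.76 and 7.82 TPM in MYC-OFF and at 4.86 and 3.70 in MYC-ON at CT24, but at 6.43 and 8.03 in MYC-OFF and at 10.6 and 11 in MYC-ON at CT76. LAMB3 thus began lower and ended higher in MYC-ON, with a slope of 0.52 ± 0.05 there and -0.05 ± 0.06 in MYC-OFF (adjusted p of the difference 1.00e-08). The mean change of LAMB3 over all CTs, -0.08, holds both ends.

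ITGA3 went from 499 and 477 TPM at CT24 to 819 and 904 at CT76 in MYC-ON, where MYC-OFF had 692 and 701 and then 692 and 662. Its slope was 0.28 ± 0.05 in MYC-ON and -0.05 ± 0.02 in MYC-OFF. The highest ITGA3 values of MYC-ON, above all of MYC-OFF, were those of CT76. LAMB1, LAMB2 and LAMC1 had slopes of 0.26, 0.40 and 0.28 in MYC-ON, all called in each series. ITGB1 went from 577 and 687 to 331 and 345 TPM in MYC-ON and from 1040 and 1220 to 932 and 1030 in MYC-OFF, with slopes of -0.34 ± 0.04 and -0.12 ± 0.02. ITGA5 rose over time in MYC-ON on both series together (0.35 ± 0.08), with 0.60 in series 1 and 0.11 in series 2 (adjusted p = 0.291).

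**Figure D5:**
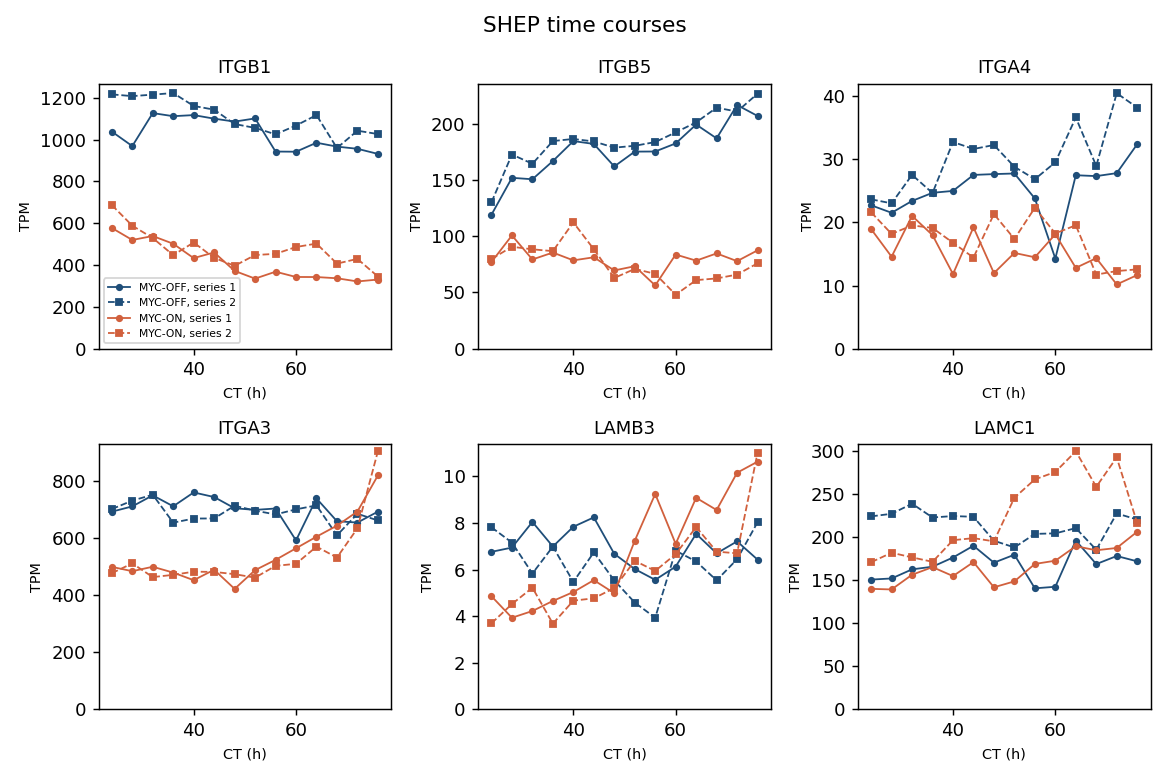
TPM (vertical axes from 0) of ITGB1, ITGB5, ITGA4, ITGA3, LAMB3 and LAMC1 against CT in hours in SHEP, for MYC-OFF (blue) and MYC-ON (orange), series 1 solid and series 2 dashed. ITGB5 separates with time, and LAMB3 of MYC-ON runs from 4.86 and 3.70 TPM at CT24 to 10.6 and 11 at CT76, crossing MYC-OFF.

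In SKNAS 0 members had a called slope in either group, where limma called 0% and 0.00627% of all genes down and up in MYC-OFF, and 0.0815% and 0.0314% in MYC-ON. A 24 h rhythm was not detected in any of the 27 members. In a limma F test of 24 h cosine and sine terms 0 of 27 reached an adjusted p of 0.05 in each of the 4 groups, where 0.0690% and 0.0125% of all genes did in SHEP MYC-OFF and MYC-ON and 0% in both SKNAS groups. At an unadjusted p of 0.05 the count was also 0 in each, against 10.0%, 9.04%, 0.897% and 0.778% of all genes.

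Genes that work with the members were counted from lists, beside 36.3% lower and 30.9% higher of all genes in SHEP and 31.2% and 12.5% in SKNAS. Of 28 adaptors and signalling proteins of integrins 27 were tested, and 20 fell and 4 rose in SHEP, and 17 fell and 3 rose in SKNAS. TGFB1I1, a paxillin-like focal adhesion protein, fell by 1.67 ± 0.05 in SHEP (59 to 17.9 TPM, means) and by 1.45 ± 0.19 in SKNAS (27.1 to 8.99). PARVB, a parvin that links ILK to actin, rose by 0.51 ± 0.03 and 0.44 ± 0.08, and ITGB1BP1, which binds the tail of ITGB1, by 0.23 ± 0.04 and 0.65 ± 0.10. All 10 tested partners of laminin in the basement membrane, of 13, fell in SHEP and 9 in SKNAS. COL4A2, a collagen IV chain, fell by 1.23 ± 0.06 and 1.62 ± 0.13.

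Of 7 other laminin receptors 6 fell in each line, among them the syndecan SDC4, by 1.05 ± 0.04 in SHEP (218 to 106 TPM, means) and by 2.25 ± 0.13 in SKNAS (68.4 to 13.1). Of 21 other ligands of integrins 19 were tested, and 15 fell and 1 rose in SHEP, and 16 fell and 0 rose in SKNAS. TGFBI, a secreted ligand of several integrins, fell by 1.90 ± 0.09 in SHEP (1291 to 379 TPM, means) and by 2.15 ± 0.14 in SKNAS (115 to 26.4). The median log2 changes of the 4 lists were -0.33, -0.81, -1.05 and -1.11 in SHEP and -0.80, -1.69, -1.41 and -1.40 in SKNAS, beside -0.02 and -0.22 over all genes. In the SKNAS libraries with a median of at least 3.8, without the CT term, 12 adaptors, 9 basement membrane partners, 5 laminin receptors and 11 ligands were lower and 2, 0, 0 and 0 higher, against 22.8% and 18.6% of all genes. The median changes of the lists were then -0.51, -1.25, -1.25 and -0.93. TGFB1I1 then fell by 1.26, COL4A2 by 1.57, SDC4 by 2.15 and TGFBI by 2.09, PARVB rose by 0.50, and ITGB1BP1, at 0.31, was not called (adjusted p = 0.0686).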

How the data were processed

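The deposited TPM were made by the authors with Salmon 1.3.0 (GRCh38) and summed to genes, 1 table for 83 libraries. Every column sums to 1000000, so that no value carries its depth and counting errors are unknown. Because TPM are not counts, the study's count model was replaced by limma 3.58.1 (R 4.3.3), fitted to log2(TPM + 1) with an intensity trend, CT as a factor, and Benjamini-Hochberg adjustment over 15942 genes. The line difference used the MYC-OFF libraries, and the interaction all 83. Slopes and rhythms (24 h) had the SHEP series as a factor. Scripts were tested on simulated data. Members, named genes and lists (adaptors, basement membrane partners, other laminin receptors, other ligands, cell markers) were chosen with earlier results of these data known. The listed genes named come from the 2 per list and direction with the largest summed change over both lines. TNS1, COL18A1, SDC1 and L1CAM were also among these and fell in both lines. In SKNAS libraries with a median of at least 3.8, without the CT term, TNS1 was not called (-0.39, limma adjusted p = 0.456). SHEP replicate numbers mark separate experiments. Averaged over CTs, the difference between series correlated between MYC-OFF and MYC-ON at r = 0.475 over 15942 genes. At single CTs r was 0.038 to 0.278. Coordinates come from Gencode 44 (GRCh38). Strand is not given in the sources used here, so genes overlapping on opposite strands (ITGA4 with CERKL, 2813 exon bases) may share reads. A second SKNAS series and another cell line were not analysed here. Alternatives were another pseudocount (0.1), other filters on low values, median-of-ratios rescaling, the library median as a covariate, no CT term, no intensity trend, the replicate block, leaving out a SHEP series, series means as replicates, and only SKNAS libraries with a median of at least 3.8. The last without the CT term, and each line with its own spread, were chosen after seeing the data. Values of 1 member are not reported here, though the counts include it.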

Additional observations from a re-analysis of the deposited data

Results flagged for a closer look

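14 members were singled out because their MYC effect differed between the lines in the interaction test (SKNAS minus SHEP, log2). Below zero were ITGA1 at -0.87, ITGA2 at -1.16, ITGA3 at -1.38, ITGA5 at -0.88, ITGA6 at -0.96, ITGA8 at -2.60, ITGA11 at -1.88, ITGAV at -0.95, ITGB5 at -1.08, LAMB2 at -0.78 and LAMB3 at -1.30. Above zero were ITGB3 at 2.55, ITGB4 at 1.69 and LAMA4 at 0.89. ITGA8 and ITGA11 were near 0 in SHEP, and ITGB3 and LAMA4 in SKNAS, and they passed the limit of 1 TPM through the other line, so that their differences restate the change there. With each line given its own spread, an alternative chosen after seeing the data, ITGA1 was no longer called. With the library median as a covariate the differences of ITGA1 (-0.25), ITGA2 (-0.41), ITGA5 (-0.31), ITGA6 (-0.49) and ITGAV (-0.36) were under the limit of 0.66.

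18 members were singled out because their time trend in SHEP differed between conditions (MYC-ON minus MYC-OFF, log2 per 24 h). Below zero were ITGA1 at -0.43, ITGA4 at -0.45, ITGAE at -0.18, ITGAV at -0.18, ITGB1 at -0.22, ITGB3 at -0.31, ITGB5 at -0.41, ITGB8 at -0.38 and LAMA4 at -0.15. Above zero were ITGA3 at 0.33, ITGA5 at 0.35, ITGA6 at 0.18, ITGAX at 0.37, ITGB4 at 0.52, LAMB1 at 0.21, LAMB2 at 0.41, LAMB3 at 0.58 and LAMC1 at 0.29. In series 1 and series 2 fitted alone ITGB4 was at 0.91 and 0.13 (adjusted p = 2.60e-04 and 0.608) and ITGA5 at 0.56 and 0.13 (adjusted p = 0.0077 and 0.478), so the difference of these 2 was not called in series 2. Of the members listed, ITGA3, ITGA4, ITGB5, ITGB8 and LAMB3 were called in each series.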

How the results depend on the processing

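The depth of each library is unknown, and SKNAS has 1 experiment. The 13 members lower in both lines rest in SKNAS on libraries whose medians moved with the condition. In SHEP the replicate block left 20 members lower and 13 at 1.5-fold (36.5% and 10.3% of all genes). With the 2 series means as replicates 16 were lower (25.0%). 1 member was higher with the library median as covariate (32.8% of all genes). 1 was higher without SHEP replicate 1 and 1 without SHEP replicate 2 (ITGA2 and LAMA2, against 28.4% and 28.6% of all genes).

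In SKNAS 0 members were lower, at either threshold, when only libraries with a median of at least 3.8 entered with the CT term, where limma called 0 genes of 15942 and 2840 had an unadjusted p of at most 0.05. That fit leaves few CTs with both conditions. Without the CT term, chosen after seeing the data, 14 were lower (13 at 1.5-fold), against 22.8% (12.9%) of all genes. 1 member was higher after rescaling (ITGB4, also at 1.5-fold) and 1 with the covariate (LAMC1), against 20.8% and 25.7% of all genes. ITGAE changed sign, from 0.08 to -0.27 with the covariate and -0.29 in libraries with a median of at least 3.8 without the CT term, and LAMC1 from -0.30 to 0.37 with the covariate. The cause was not tested.

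Members with a SKNAS effect below that of SHEP were 6 with the covariate (7.87% of all genes) and 6 in libraries with a median of at least 3.8 (6.64%). Those above were 1 when both lines had to reach 1 TPM (2.97%), which leaves fewer genes tested (12306, with 18 members). Under that filter 8 members were higher in SHEP and 1 in SKNAS in MYC-OFF, against 26.6% and 15.7% of all genes left. Upward slopes in SHEP MYC-OFF were 3 without the filter on low values (1.92% of all genes) and 3 with no replicate block (4.36%). Without SHEP replicate 1 they were 2 (1.05%) and without SHEP replicate 2 they were 4 (2.98%). In SHEP MYC-ON downward slopes were 7 with the covariate (22.4%). Without SHEP replicate 1 downward slopes were 10 (24.8%) and upward slopes 6 (14.8%), and without SHEP replicate 2 they were 6 (31.9%) and 11 (15.8%). The slope of LAMA5 there went from -0.06 to -0.45 without SHEP replicate 1 and 0.32 without SHEP replicate 2. In SKNAS the covariate gave 1 upward slope in MYC-OFF and 1 downward slope in MYC-ON, against 0.0627% and 0.772% of all genes. Slope differences below zero were 5 without SHEP replicate 1 (18.8% of all genes). Those above were 6 without SHEP replicate 1 and 6 without SHEP replicate 2 (10.5% and 10.3%).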
